A study of Homo sapiens with 48 samples.

Results

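The comparison set senescent cells that had lost the spliceosome subunit SF3B1 against senescent cells that had lost the splicing factor RBM39. It used 16 of the 48 libraries of the series, namely the 8 libraries labelled 4OHT siSF3B1 and the 8 labelled 4OHT siRBM39, which were selected by their sample titles. All libraries came from IMR90 lung fibroblasts with an ER:RAS G12V genotype, that is, oncogenic RAS fused to the oestrogen receptor, and 4-hydroxytamoxifen (4OHT) switches the fusion on. Cells received 4OHT or the solvent DMSO for 6 days, were then transfected with siRNA and were kept for 2 more days in medium with 0.5% serum. SF3B1 was targeted with siSF3B1-13 and siSF3B1-16 and RBM39 with siRBM39-06 and siRBM39-08, each siRNA in 4 replicates. The 8 libraries with non-targeting siRNA in 4OHT (siNT1 and siNT2) gave the direction of each change, and the 16 knockdown libraries in DMSO gave the same contrast without RAS activation. For 4 of the siNT libraries the title says siNT2 while another label says siNT1, and the title was followed. All groups share 1 cell line and the fusion, and no label says whether replicates were separate cultures. The study's methods call replicates of cell culture work independent experiments, but give a number of them for this experiment that differs from the labels. The p-values therefore measure the spread between these samples, which may be technical in part. They also treat the 8 libraries of a target as separate, although these come from only 2 siRNAs, so they do not measure the spread between siRNAs.

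SF3B1 is the large subunit of SF3b within the U2 snRNP, which binds the branch point of nearly every intron before the first splicing step. RBM39 is an RNA-binding protein related to the U2AF factors, which read the polypyrimidine tract and the AG at the end of the intron, and it contacts SF3B1 through a U2AF-homology domain. Loss of either factor can let the spliceosome pass over an exon or leave an intron in the mRNA. Cells in RAS-induced senescence no longer divide and release cytokines, chemokines, growth factors and proteases, together called the senescence-associated secretory phenotype.

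Exons and introns at which the knockdowns differed are shown first, since both factors act at the 3′ end of the intron. They are examples from the named events, with those of SUPT5H and CHD4, and not a ranking. Sequences are from GRCh37 and read 5′ to 3′ on the gene's strand. For exons, lower case gives the last 30 nt of the intron before and the first 10 nt of the intron after, and capitals mark the exon. For introns, capitals mark the intron between 10 nt of each neighbouring exon. The exons of SNX14 (chr6:86248556-86248582, minus strand), PTPRS (chr19:5218798-5218809, minus strand), MARK3 (chr14:103966493-103966537, plus strand) and SUPT5H (chr19:39948934-39948945, plus strand) are short, have a length divisible by 3 and were skipped after siSF3B1 and included after siRBM39. They are coding in 31 of 79, 4 of 5, 13 of 43 and 4 of 5 GENCODE transcripts that carry them.
SNX14: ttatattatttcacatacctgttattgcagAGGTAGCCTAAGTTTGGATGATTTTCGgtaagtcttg
PTPRS: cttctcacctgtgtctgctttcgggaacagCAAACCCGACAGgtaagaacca
MARK3: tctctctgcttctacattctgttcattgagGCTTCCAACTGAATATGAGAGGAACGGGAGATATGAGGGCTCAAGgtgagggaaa
SUPT5H: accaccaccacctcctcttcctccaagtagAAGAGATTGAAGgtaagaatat
The 67-nt exon of U2AF1 (chr21:44520563-44520629, minus strand, coding in 1 of 5 transcripts) moved the other way, and the 84-nt exon of MICAL1 (chr6:109768560-109768643, minus strand, coding in 3 of 4 transcripts) was lost more after siRBM39 than after siSF3B1.
U2AF1: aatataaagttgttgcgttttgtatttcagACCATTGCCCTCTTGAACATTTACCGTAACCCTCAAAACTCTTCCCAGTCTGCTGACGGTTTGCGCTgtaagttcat
MICAL1: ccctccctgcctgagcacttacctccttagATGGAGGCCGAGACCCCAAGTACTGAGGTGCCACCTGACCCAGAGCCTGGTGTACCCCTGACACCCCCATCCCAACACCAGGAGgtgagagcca
The introns of JTB (chr1:153949252-153949451, minus strand) and CHD4 (chr12:6692280-6692363, minus strand) were retained after siSF3B1.
JTB: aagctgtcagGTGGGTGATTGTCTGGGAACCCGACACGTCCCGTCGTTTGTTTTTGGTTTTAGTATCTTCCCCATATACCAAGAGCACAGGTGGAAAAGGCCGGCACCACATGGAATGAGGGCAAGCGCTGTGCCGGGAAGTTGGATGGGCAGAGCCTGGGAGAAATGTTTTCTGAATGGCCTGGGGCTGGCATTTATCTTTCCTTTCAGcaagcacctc
CHD4: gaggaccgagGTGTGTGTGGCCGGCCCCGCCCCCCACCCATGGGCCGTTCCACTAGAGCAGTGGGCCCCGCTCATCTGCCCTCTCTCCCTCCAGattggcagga
Pyrimidines made up 60% to 76% of the last 25 intron bases before the AG in the 6 exons, 68% in the JTB intron and 88% in the CHD4 intron, against a median of 72% over all exons and all introns tested.

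Counts per library ranged from 31467221 to 49222147 over the 16 libraries. Replicate 4 of siRBM39-08 in 4OHT stood apart. The median absolute log2 deviation of its genes from the group was 0.529, against 0.0690 to 0.137 in the other 15 libraries. Its summed level of 6 epithelial markers was 34.1 CPM (counts scaled to a common library size), against at most 5.17 CPM in the other siRBM39 libraries and 3.53 to 5.24 CPM in siSF3B1 libraries. CDH1, KRT14, SFTPC and NKX2-1 stayed below 1 CPM in each library. EPCAM did so after siSF3B1 and with siNT but not in every siRBM39 library, and KRT5 did not in any group. The 11 fibroblast markers summed to 12069 to 16988 CPM after siRBM39 and 15041 to 15911 CPM after siSF3B1. In siRBM39-08 replicate 4 the summed level of 5 blood markers was 113.5 CPM, against at most 97.4 CPM in the other siRBM39 libraries. Its part in the results was not tested other than by leaving it out. Counts of direct differences and of opposite movement are given with and without it. Counts of exons and introns changed after one knockdown, of agreement with DMSO, of differences between treatments and of most gene lists are given only with it.

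Both knockdowns were seen in the targeted transcripts. SF3B1 (ENSG00000115524) ranged from 25.3 to 30.7 CPM (median 26.5) after siSF3B1, from 225 to 445 CPM (median 425) after siRBM39 and from 315 to 340 CPM (median 327) with siNT. The lowest siRBM39 value was that of siRBM39-08 replicate 4, and the other 7 lay between 408 and 445 CPM. RBM39 (ENSG00000131051) ranged from 13.8 to 18.4 CPM (median 16.6) after siRBM39, from 234 to 260 CPM (median 252) after siSF3B1 and from 115 to 127 CPM (median 120) with siNT. No group overlapped another except that the lowest SF3B1 value after siRBM39 lay below the siNT range. Directly compared, SF3B1 was lower in siSF3B1 by a log2 fold change of −3.88 (SE 0.09, edgeR adjusted p = 2.61e-36) and RBM39 was higher by 3.95 (SE 0.05, adjusted p = 5.38e-45). Each of the targeted genes therefore counts among the genes with opposite movement below.

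Exons included more after siRBM39 outnumbered those included more after siSF3B1. Percent spliced-in (PSI) is the share of reads that support inclusion. Of 7673 cassette exons tested, 1773 (23.1%) were included more after siRBM39 and 238 (3.10%) were included more after siSF3B1. A call needed an adjusted p under 0.05 (limma on logit PSI) and a difference of at least 5 percentage points. The 7673 are those of 24757 covered exons whose PSI ranged over at least 5 points in the 48 libraries. The knockdown libraries are part of that range, so the shares are of variable exons and not of all exons. Without the range filter 1698 and 222 exons were called. The same filter was set for introns and alternative splice sites. With a plain logit, which admits only exons whose PSI lay between 1 and 99 in all 48 libraries and so drops most exons near full inclusion, the counts were 200 and 87. The 8 and 8 libraries did not overlap for 1001 and 101 of the exons called, and for 1298 of all 7673. Exons, introns and splice sites named for a large direct difference were taken from those without overlap, so that separation follows from the choice. Against siNT, inclusion fell at 2222 exons (29%) and rose at 79 (1.03%) after siSF3B1, and fell at 618 (8.05%) and rose at 87 (1.13%) after siRBM39. Leaving out siRBM39-08 replicate 4 gave 1776 and 223 exons. Exons included more after siRBM39 had a median PSI of 99.2% with siNT, close to the 99.4% of all exons tested, whereas exons included more after siSF3B1 had a median of 66.2%.

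**Figure D1:**
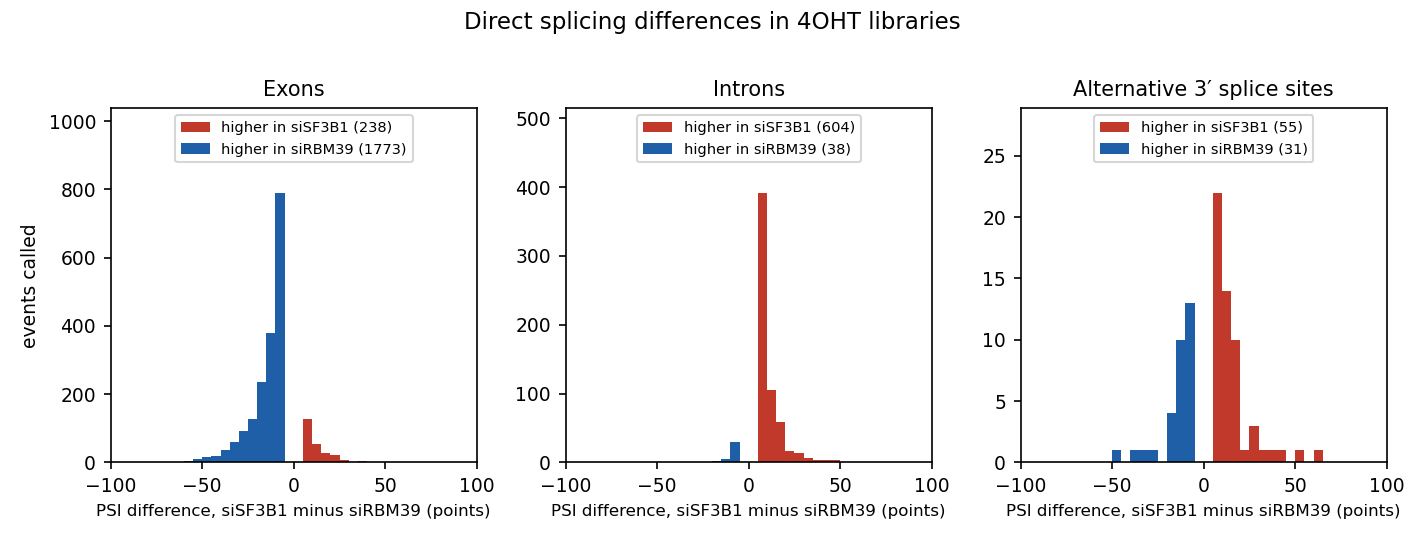
Differences in PSI for the events called between 4OHT siSF3B1 and 4OHT siRBM39 libraries, as histograms with 5-point bins (x, siSF3B1 minus siRBM39 in percentage points, y, number of events). Exons lie mostly to the left, with 1773 higher after siRBM39 and 238 higher after siSF3B1, introns mostly to the right, with 604 against 38, and alternative 3′ splice sites on both sides, with 55 against 31.

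A group of 37 exons in 35 genes moved in opposite directions from siNT. For 29 of them inclusion fell after siSF3B1 and rose after siRBM39, and for 8 it rose after siSF3B1 and fell after siRBM39. Their direct difference follows from the way they were chosen and is given as a description. An exon near 0% or 100% cannot move both ways, and the median PSI of these exons with siNT was 61.6%. When each knockdown was set against a different non-targeting siRNA, so that no control was shared, 36 and 30 exons met the rule. Leaving out siRBM39-08 replicate 4 gave 34 exons. In DMSO libraries, whose PSI differences were not part of the rule although they entered the event filter and the estimate of the spread, all 37 were called in the same direction between the knockdowns, against 23.1% of all exons called in DMSO the way they moved in 4OHT, whether called there or not. The 37 exons had a median length of 76 nt, against 105 nt over all exons tested. Of them 16.2% were at most 27 nt, against 1.29% of all exons tested, and 67.6% had a length divisible by 3, against 42.3%. This was not particular to opposite movement. Among 26 exons included more after siRBM39 alone, by a rule given below, the shares were 15.4% and 57.7%. All exons tested had a median PSI of 99.4% with siNT, and exons of like inclusion were not compared.

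The 27-nt exon of SNX14, a sorting nexin of the endoplasmic reticulum, had the largest direct difference of the 37. Its PSI ranged from 0% to 20.5% (median 8.93%) after siSF3B1, from 91.6% to 100% (median 93.3%) after siRBM39 and from 52.5% to 72.1% (median 61.7%) with siNT. The 3 groups did not overlap, and the knockdowns differed by −84.8 points (limma adjusted p = 3.10e-20), or −82.9 points in DMSO. The 45-nt exon of MARK3, a kinase of microtubule-associated proteins, ranged from 2.08% to 12.9% (median 7.30%) after siSF3B1, from 70.6% to 84.6% (median 76.5%) after siRBM39 and from 45.3% to 65.0% (median 53.8%) with siNT. Again the 3 groups were separate, with a direct difference of −70.4 points (adjusted p = 3.10e-20). The 22-nt exon of RPS24, a protein of the small ribosomal subunit, ranged from 20.2% to 44.4% (median 25.04%) after siSF3B1, from 74.7% to 92.3% (median 87.3%) after siRBM39 and from 46.98% to 81.4% (median 63.1%) with siNT. Its siRBM39 and siNT ranges overlapped, whereas the knockdowns did not, and they differed by −59.3 points (adjusted p = 4.48e-13).

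Exons of 12 nt followed the same pattern. In PTPRS, a receptor tyrosine phosphatase, PSI ranged from 0% to 20.2% (median 9.35%) after siSF3B1, from 83.5% to 100% (median 92.8%) after siRBM39 and from 53.8% to 93.8% (median 68.7%) with siNT. The knockdowns were far apart (difference −83.6 points, adjusted p = 1.51e-14), although the siRBM39 and siNT ranges overlapped and the siRBM39 values rested on as few as 13 reads. The exon of SUPT5H, a subunit of the elongation factor DSIF, ranged from 9.79% to 31.3% (median 17.6%) after siSF3B1, from 84.8% to 100% (median 95.1%) after siRBM39 and from 55.5% to 90.1% (median 72.5%) with siNT. It did not pass the coverage filter, since 10 of the 48 libraries lay below it and 1 siRBM39 library held 2 reads, and so it was tested alone. The knockdowns differed by −76.5 points (two-sided exact permutation test over 12870 splits, p = 0.000155, the smallest that 8 against 8 libraries allow).

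The other very short exons with opposite movement, named after their values were seen, were those of MAP4K4 (9 nt), PSAP (9 nt) and AP2M1 (6 nt). Mean PSI of the MAP4K4 exon, in a stress-pathway kinase, was 10.7% after siSF3B1, 56.1% after siRBM39 and 38.5% with siNT. For PSAP, the precursor of the lysosomal saposins, it was 16.3%, 62.03% and 32.1%. For AP2M1, a subunit of the clathrin adaptor AP-2, it was 18.4%, 72.2% and 61.6%. All 6 exons of at most 27 nt in the group, with SNX14, RPS24 and PTPRS, were thus skipped after siSF3B1 and included after siRBM39. Longer exons of this kind, also named after their values were seen, lay in CD47, the receptor that inhibits phagocytosis (45.7% after siSF3B1, 96.95% after siRBM39, 87.2% with siNT), and in F3, which encodes tissue factor (5.43%, 38.3% and 16.9%).

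Exons that rose after siSF3B1 and fell after siRBM39 included exons of spliceosome genes themselves. The 51-nt exon of PUF60, a relative of U2AF and RBM39 that binds pyrimidine tracts, ranged from 55.1% to 65.7% (median 58.3%) after siSF3B1, from 7.37% to 21.9% (median 17.8%) after siRBM39 and from 37.4% to 54.3% (median 44.4%) with siNT. No group overlapped another, and the knockdowns differed by 42.9 points (adjusted p = 4.03e-15). The 67-nt exon of U2AF1, whose protein recognises the AG of the 3′ splice site, ranged from 65.5% to 83.8% (median 75.8%) after siSF3B1, from 25.9% to 45.4% (median 38.9%) after siRBM39 and from 45.7% to 65.4% (median 58.7%) with siNT. The groups were separate (difference 38.1 points, adjusted p = 3.02e-12), but reads may be shared with a near-identical U2AF1 copy, so the level of this exon is uncertain. A 95-nt exon of SRRM2, a scaffold of nuclear speckles, ranged from 16.4% to 42.2% (median 24.5%) after siSF3B1 and from 0% to 2.70% (median 0.615%) after siRBM39, against 9.60% to 27.4% (median 14.9%) with siNT. The siRBM39 libraries lay below both other groups, which overlapped (direct difference 25.1 points, adjusted p = 2.63e-14).

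In TPM1, tropomyosin, also named after its values were seen, the group held both members of a pair of 76-nt exons, which moved in opposite ways. Mean PSI of one was 91.3% after siSF3B1, 58.3% after siRBM39 and 81.9% with siNT, and that of the other was 9.74%, 44.1% and 18.4%. In PXN, which encodes the focal adhesion protein paxillin, a 309-nt exon ranged from 31.6% to 47.3% (median 39.9%) after siSF3B1, from 1.82% to 11.4% (median 3.69%) after siRBM39 and from 5.13% to 17.6% (median 8.51%) with siNT. The highest siRBM39 value was that of siRBM39-08 replicate 4, and the siSF3B1 libraries lay above all others (difference 35.1 points, adjusted p = 2.61e-13). The 84-nt exon of MICAL1, an enzyme that oxidises actin, fell in both knockdowns, to 51.7% to 75.1% (median 69.1%) after siSF3B1 and 18.2% to 48.4% (median 28.95%) after siRBM39, from 88.3% to 100% (median 94.5%) with siNT. The loss was larger after siRBM39 by 35.6 points (adjusted p = 1.16e-05).

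**Figure D2:**
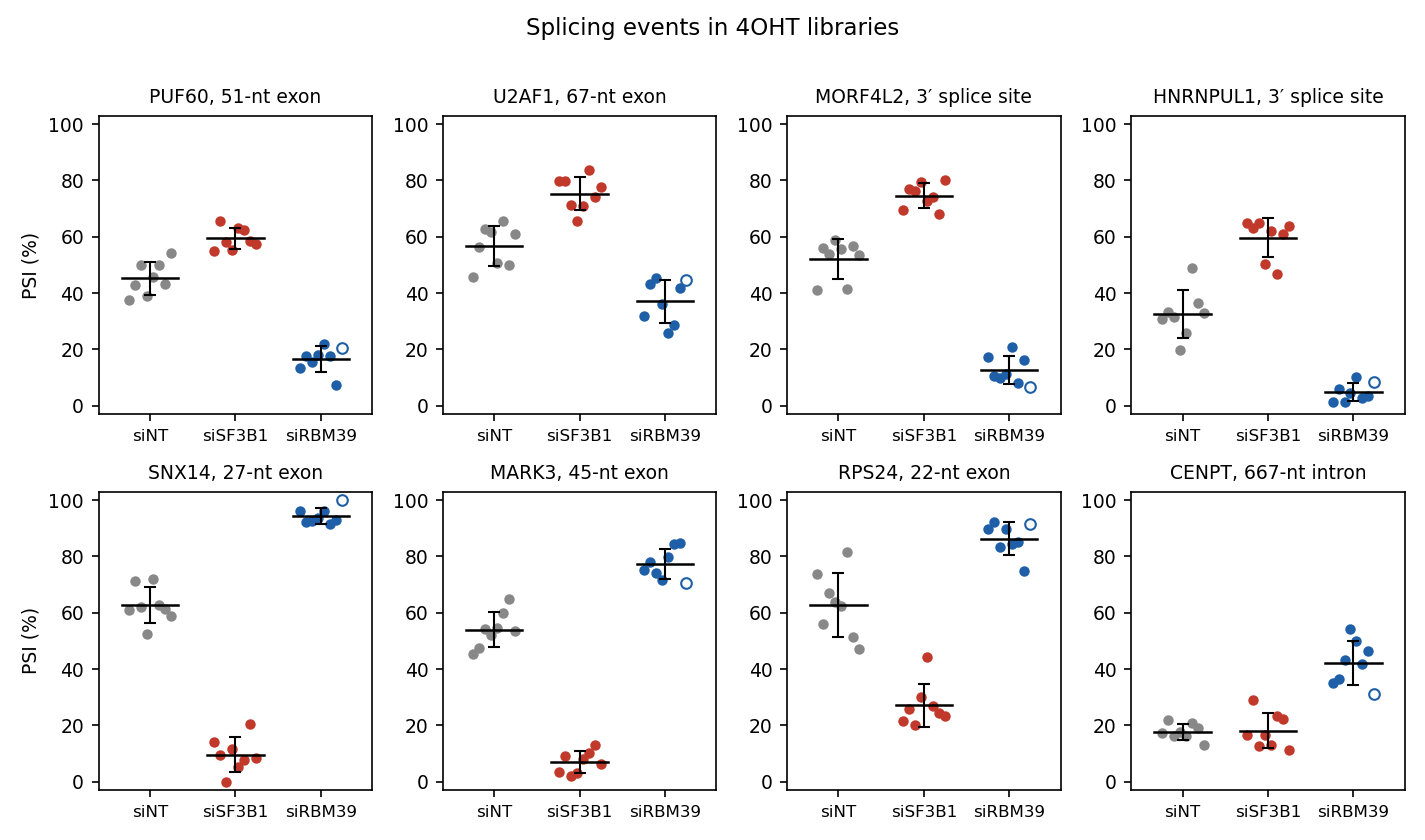
PSI (y, percent) of 8 events in the 4OHT libraries with siNT, siSF3B1 and siRBM39. Each point is 1 library, with the first siRNA of a target on the left and the second on the right, the horizontal line is the mean of 8 libraries, the bar is ± 1 SD, and the open circle is siRBM39-08 replicate 4. In PUF60, U2AF1, MORF4L2 and HNRNPUL1 the siSF3B1 mean is highest and the siRBM39 mean lowest, in SNX14, MARK3 and RPS24 the order is reversed, and in CENPT the siRBM39 libraries lie above both other groups.

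Many exons were called against siNT after one knockdown and not after the other. This class, which was added after the event table had been seen, required a call after one knockdown, no call and under 5 points after the other, and a call between them. It held 1298 exons with less and 40 with more inclusion after siSF3B1, and 74 with less and 26 with more inclusion after siRBM39. The 72-nt exon of HERPUD1, a protein of ER-associated degradation, ranged from 13.3% to 32.2% (median 23.99%) after siSF3B1, from 90.9% to 100% (median 98.0%) after siRBM39 and from 97.5% to 100% (median 100%) with siNT. The siSF3B1 libraries were separate from both others, which overlapped, and the knockdowns differed by −73.5 points (adjusted p = 2.07e-18). The exons lost after siSF3B1 in this class had a median length of 90 nt and a median GC content of 47.3%, against 105 nt and 49.2% over all exons tested.

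Introns differed in the direction opposite to exons. Of 5248 introns tested, 604 (11.5%) were retained more after siSF3B1 and 38 (0.724%) more after siRBM39. The 5248 are those of 26089 covered introns that passed the range filter and the balance filter. Without the range filter the counts were 590 and 33, and with the plain logit they were 41 and 11. The libraries did not overlap for 340 and 11 of the 604 and 38 introns, and for 507 of all 5248. Without siRBM39-08 replicate 4 the counts were 616 and 40. Against siNT, retention rose at 769 introns (14.7%) and fell at 11 (0.210%) after siSF3B1, and rose at 106 (2.02%) and fell at 8 (0.152%) after siRBM39. By the rule used above for exons, 499 introns were retained more and 2 less after siSF3B1 alone, and 20 more and 0 less after siRBM39 alone. No intron moved in opposite directions from siNT (0 of 5248), although 14 did so when introns with unbalanced reads at their ends were kept. Introns retained more after siSF3B1 were short and GC-rich, with a median length of 338 nt and a median GC content of 59.7%, against 800.5 nt and 50.7% over all introns tested.

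The 200-nt intron of JTB, a membrane protein gene, was retained in 49.6% to 83.1% (median 65.7%) of transcripts after siSF3B1, in 6.71% to 20.7% (median 11.7%) after siRBM39 and in 5.81% to 20.7% (median 10.03%) with siNT. Retention was high in siSF3B1 libraries alone, and the knockdowns differed by 52.4 points (adjusted p = 1.74e-16) in 4OHT and 34.9 points in DMSO. A 352-nt intron of TSC2, the tuberin gene whose product restrains mTORC1, ranged from 42.2% to 71.6% (median 52.1%) after siSF3B1, from 1.01% to 10.9% (median 4.46%) after siRBM39 and from 1.18% to 6.66% (median 3.57%) with siNT. The difference was 48.5 points (adjusted p = 4.03e-14), and TSC2 mRNA was also lower after siSF3B1 (direct log2 fold change −1.33, edgeR adjusted p = 3.08e-28). A 379-nt intron of PTPN23, a phosphatase of endosomal sorting, ranged from 30.9% to 69.1% (median 58.8%) after siSF3B1 and from 1.82% to 8.5% (median 5.45%) after siRBM39, a difference of 49.1 points (adjusted p = 5.85e-11). The mRNA of PTPN23 was higher after siSF3B1 (log2 fold change 0.36, adjusted p = 3.96e-05).

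The 84-nt intron of CHD4, the helicase of the NuRD complex, was retained after both knockdowns, with 32.3% to 55.1% (median 49.6%) after siSF3B1, 14.3% to 26.02% (median 21.6%) after siRBM39 and 4.89% to 16.4% (median 6.39%) with siNT. The knockdowns did not overlap and differed by 25.01 points (exact permutation test, p = 0.000155), but reads at both ends of this intron were unbalanced in some libraries and it stood outside the fit. A 667-nt intron of CENPT, a kinetochore protein, was retained after siRBM39, with 31.1% to 54.4% (median 42.4%), against 11.4% to 28.9% (median 16.6%) after siSF3B1 and 13.0% to 21.8% (median 17.6%) with siNT. Here siRBM39 libraries alone were high (difference −24.1 points, adjusted p = 4.35e-07). An intron of C1orf63 (RSRP1), an arginine- and serine-rich protein gene, was spliced out in both knockdowns, from 79.4% to 90.9% (median 86.3%) with siNT to 2.88% to 7.69% (median 5.27%) after siSF3B1 and 17.98% to 28.5% (median 20.6%) after siRBM39. The 1118-nt intron of SFRS18 (PNISR), an SR-related protein gene, fell after siSF3B1, to 11.5% to 26.3% (median 17.5%), and stayed within 36.98% to 60.5% (median 51.7%) after siRBM39, against 37.1% to 67.5% (median 53.4%) with siNT.

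Genes with introns retained more after siSF3B1 were set beside their own mRNA. Of 453 such genes with counts, 233 (51.4%) were lower after siSF3B1 than after siRBM39 and 91 were higher, with a median log2 fold change of −0.20. Among all 4189 genes with an exon or intron tested, 38.5% were lower, with a median of −0.04. These shares were not tested against each other.

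Alternative 3′ splice sites, where the choice falls between neighbouring AG dinucleotides, differed in both directions. Of 514 sites tested, 55 (10.7%) were used more after siSF3B1 and 31 (6.03%) more after siRBM39, or 49 and 31 without siRBM39-08 replicate 4. In MORF4L2, a chromatin protein of the MRG family, the event has 4 sites, and its last site has a listed length of 78 nt. Use of that site ranged from 68.1% to 80.1% (median 75.3%) after siSF3B1, from 6.74% to 20.9% (median 10.96%) after siRBM39 and from 40.96% to 58.8% (median 54.9%) with siNT. The 3 groups were separate, with a difference of 62.01 points (adjusted p = 6.77e-19). In HNRNPUL1, an hnRNP U relative, use of a site 30 nt from its neighbour ranged from 46.9% to 65.0% (median 62.6%) after siSF3B1, from 1.27% to 10.2% (median 3.99%) after siRBM39 and from 19.7% to 49.1% (median 32.2%) with siNT, so that the siRBM39 libraries were again lowest (difference 54.9 points, adjusted p = 7.91e-15). Use of a site 33 nt from its neighbour in GAK, a kinase that uncoats clathrin vesicles, moved the other way, from 65.3% with siNT to 41.3% after siSF3B1 and 86.5% after siRBM39 in the mean (direct difference −45.2 points, adjusted p = 7.69e-11). A site in SLC35B1, a nucleotide transporter of the endoplasmic reticulum, was used more after siRBM39 (76.0% to 94.3%, median 81.2%) than after siSF3B1 (33.3% to 56.8%, median 45.7%) or with siNT (46.5% to 61.1%, median 54.6%).

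Alternative 5′ splice sites, which are read by U1 snRNP, differed less often. Of 354 tested, 15 (4.24%) were used more after siSF3B1 and 4 (1.13%) more after siRBM39. Only 1 called site in each direction was without overlap of the knockdown libraries, and these are named here. In LUC7L3, a protein associated with U1 snRNP, use of one site rose after siSF3B1 to 78.5% to 100% (median 95.1%), against 64.2% to 77.7% (median 74.6%) after siRBM39 and 67.9% to 86.2% (median 78.5%) with siNT, a direct difference of 20.2 points (adjusted p = 3.91e-06). In DRG2, a GTP-binding protein gene, the site 5 nt from its neighbour was used less after siSF3B1 (72.7% to 91.9%, median 85.2%) than after siRBM39 (92.3% to 100%, median 96.8%), with a difference of −13.04 points (adjusted p = 0.000879) that was not called in DMSO (−7.00 points, adjusted p = 0.141).

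Splicing was also compared without RAS activation. In DMSO, 224 exons (2.92%) were included more after siSF3B1 and 1565 (20.4%) more after siRBM39, and 441 introns (8.40%) were retained more after siSF3B1 and 69 (1.31%) more after siRBM39. Of the exons called in 4OHT, 1310 of 1773 and 161 of 238 were called in the same direction in DMSO, as were 357 of 604 and 24 of 38 introns, and 1 exon was called in the opposite direction. Over all exons and all introns tested, whether called in 4OHT or not, 1773 of 7673 and 504 of 5248 were called in DMSO in the direction of their 4OHT difference. None of the 22 events named by rule was called as differing between treatments in its direct difference (limma, adjusted p under 0.05). The largest gaps, 4OHT minus DMSO, were −20.1 points for RPS24, 17.5 for JTB, 17.2 for TSC2 and 15.6 for PTPN23 (limma adjusted p from 0.359 to 0.613). The events were chosen in 4OHT, and whether their differences are equal in both treatments was not tested. The DMSO libraries carry the same siRNAs, so an effect of an siRNA on another transcript would be shared.

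At the level of mRNA, 3368 of 9991 genes tested (33.7%) were higher after siSF3B1 and 3765 (37.7%) were higher after siRBM39 (edgeR, adjusted p under 0.05), and 208 (2.08%) and 552 (5.52%) differed at least 2-fold. In bulk RNA, fewer transcripts per cell and fewer cells that express a gene cannot be told apart. Leaving out siRBM39-08 replicate 4 gave 3800 and 3809 genes, and 208 and 532 at 2-fold. The counts at 2-fold depended on the siRNA. For siSF3B1-13 against siRBM39-06 they were 369 and 682 genes, and for siSF3B1-16 against siRBM39-08, which share no library with that pair, 182 and 582. Of these, 127 genes higher after siSF3B1 were in both sets (34.4% of the larger and 69.8% of the smaller), as were 367 genes higher after siRBM39 (53.8% and 63.1%).

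Genes highest after siSF3B1 fell into those that siSF3B1 raised and those that siRBM39 lowered. PDK4, the kinase that shuts off pyruvate dehydrogenase, ranged from 14.6 to 46.01 CPM (median 28.4) after siSF3B1, from 3.09 to 7.27 CPM (median 3.82) after siRBM39 and from 2.53 to 4.49 CPM (median 3.17) with siNT. The siSF3B1 libraries alone were high, with siSF3B1-13 at 39.8 to 46.01 CPM and siSF3B1-16 at 14.6 to 16.98 CPM, and the direct log2 fold change was 2.64 (SE 0.23, adjusted p = 4.67e-14). TCF21, a bHLH transcription factor of mesenchymal cells, ranged from 29.3 to 59.0 CPM after siSF3B1 and 6.68 to 10.8 CPM after siRBM39 (log2 fold change 2.33, SE 0.12), and G0S2, an inhibitor of triglyceride lipase, from 26.9 to 55.9 CPM and 7.04 to 13.2 CPM (2.28, SE 0.15). ADAMTS5, a secreted aggrecanase, ranged from 102 to 149 CPM after siSF3B1, from 13.4 to 34.4 CPM after siRBM39 and from 20.2 to 25.6 CPM with siNT (2.12, SE 0.15). DHFRL1 (DHFR2), a dihydrofolate reductase, instead stayed at 6.22 to 8.10 CPM after siSF3B1, beside 6.16 to 7.44 CPM with siNT, and was at 0.748 to 1.66 CPM after siRBM39 (direct log2 fold change 2.62, SE 0.10). ZDHHC2, a palmitoyltransferase, was likewise at 43.2 to 48.7 CPM after siSF3B1, 42.5 to 46.1 CPM with siNT and 6.37 to 12 CPM after siRBM39 (2.23, SE 0.09).

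Genes highest after siRBM39 were mostly lowered by siSF3B1. PLEKHJ1, a pleckstrin-homology protein gene, ranged from 2.52 to 3.30 CPM (median 2.85) after siSF3B1, from 18.4 to 80.9 CPM (median 22.8) after siRBM39 and from 19.2 to 27.3 CPM (median 22.9) with siNT. The highest value was that of siRBM39-08 replicate 4, and the direct log2 fold change of −3.32 (SE 0.21, adjusted p = 1.20e-18) was −2.89 without it. CAND2, a cullin-associated protein, RASSF4, a Ras-association domain protein, and PPP2R3A, a regulatory subunit of PP2A, were also lowered by siSF3B1, with direct log2 fold changes of −2.61 (SE 0.17), −2.59 (SE 0.17) and −2.34 (SE 0.15). SEC31B, a paralogue of the outer COPII coat subunit, ranged from 4.31 to 6.51 CPM (median 4.93) after siSF3B1, from 22.8 to 35.1 CPM (median 28.4) after siRBM39 and from 8.21 to 8.96 CPM (median 8.73) with siNT. It thus fell after siSF3B1 and rose after siRBM39, with a direct difference of −2.48 (SE 0.10, adjusted p = 1.84e-26).

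**Figure D3:**
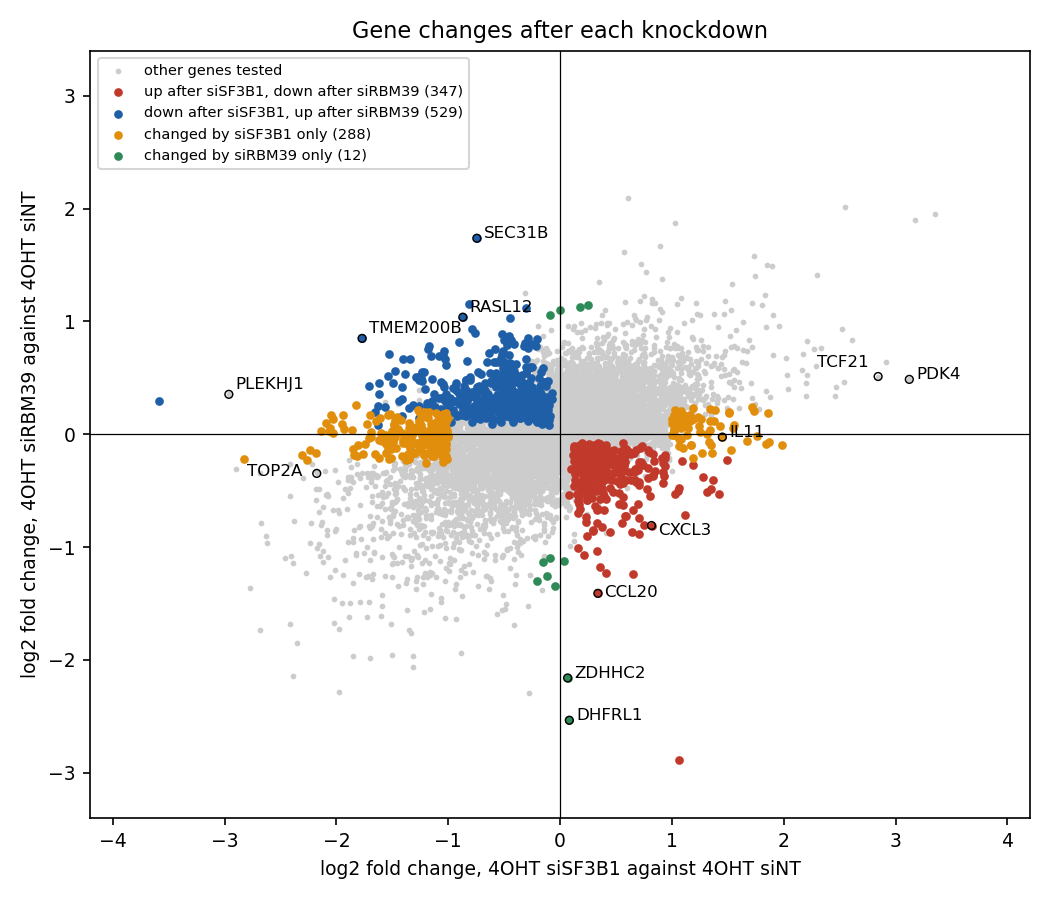
Log2 fold change of each of 9991 genes against 4OHT siNT after siSF3B1 (x) and after siRBM39 (y). Red and blue points mark the 347 and 529 genes called in opposite directions, orange and green points the 288 and 12 genes changed by one knockdown under the thresholds given in the text, and grey points all other genes. Both axes share the siNT libraries, and the lowest red point and the leftmost blue point are RBM39 and SF3B1.

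Genes called in opposite directions against siNT numbered 347 with a rise after siSF3B1 and a fall after siRBM39, and 529 the other way. As background, siSF3B1 raised 3941 genes (39.4%) and lowered 3755 (37.6%), and siRBM39 raised 3216 (32.2%) and lowered 2423 (24.3%). The targeted genes are 1 in each class. The knockdown libraries did not overlap for 331 and 466 of these genes, and each siRNA lay on the same side of siNT as its pair for 338 and 520. Over all 9991 genes these numbers were 3887 and 7065. With no siNT library shared, the counts were 220 and 329, or 270 and 412 with the non-targeting siRNAs exchanged, and they were 414 and 588 without siRBM39-08 replicate 4. Most of the opposite changes were small: 11 and 23 genes changed at least 1.5-fold in both knockdowns.

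Of the 5 genes with the largest rise after siSF3B1 and fall after siRBM39, CXCL3, a chemokine that attracts neutrophils, ranged from 146 to 242 CPM (median 188) after siSF3B1, from 48.5 to 73.0 CPM (median 60.0) after siRBM39 and from 95.4 to 121 CPM (median 109) with siNT. The 3 groups were separate, and the direct log2 fold change was 1.63 (SE 0.11, adjusted p = 1.09e-17). BCL2A1, a survival protein of the BCL2 family, ranged from 21.7 to 34.8 CPM after siSF3B1, from 5.78 to 11.3 CPM after siRBM39 and from 10.7 to 15.1 CPM with siNT (1.83, SE 0.13). ZNF451, a SUMO ligase, and USP53, a member of the ubiquitin protease family, had direct log2 fold changes of 1.44 (SE 0.08) and 1.58 (SE 0.15). In the other direction, RASL12, a Ras-like GTPase, ranged from 4.39 to 5.07 CPM (median 4.96) after siSF3B1, from 14.6 to 21.3 CPM (median 17.9) after siRBM39 and from 8.24 to 10.01 CPM (median 8.78) with siNT, again without overlap (−1.91, SE 0.14, adjusted p = 1.43e-16). C5orf54 (FAM200C), C7orf41 (MTURN) and ARSI, an arylsulfatase, had direct log2 fold changes of −1.97, −1.73 and −1.72. TMEM200B, a membrane protein gene, was lowest at 0.0775 to 0.308 CPM after siSF3B1, against 1.03 to 1.37 CPM after siRBM39 (−2.62, SE 0.19).

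A change by one knockdown was taken as a call of at least 2-fold against siNT after that knockdown, no call and less than 1.2-fold after the other, and a call between them. After siSF3B1 it was met by 288 genes, of which 72 rose and 216 fell, or 61 and 197 without siRBM39-08 replicate 4. Each siRNA lay on the same side of siNT as its pair for 146 of the 288, against 7065 of all 9991 genes. The rule holds siRBM39 near siNT only in the mean of its 2 siRNAs. C13orf33 (MEDAG), a regulator of fat cell differentiation, ranged from 60.3 to 99.7 CPM after siSF3B1, from 13.9 to 21.3 CPM after siRBM39 and from 19.5 to 20.7 CPM with siNT (direct log2 fold change 2.08, SE 0.16). THOC6, a subunit of the THO mRNA export complex, and ZNF844, a zinc finger gene, followed with 1.94 (SE 0.14) and 1.68 (SE 0.11). SAMD9L, an interferon-inducible gene, ranged from 4.26 to 7.26 CPM after siSF3B1, from 9.47 to 32.5 CPM after siRBM39 and from 26.4 to 32.1 CPM with siNT (−2.13, SE 0.17), the lowest siRBM39 value being that of siRBM39-08 replicate 4. NACAD, a relative of the nascent-chain chaperone, and CAND2 fell likewise, by 2.26 and 2.83 on the log2 scale against siNT.

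After siRBM39 the same rule was met by 12 genes, 4 of which rose and 8 fell. Each siRNA lay on the same side of siNT as its pair for 8 of the 12 genes. Since some are named only because the count is small, SHC2, SLC7A11, C2orf3 (GCFC2), PM20D2, NDUFS1 and IL8 were chosen after their values were seen. METTL7A, C1orf91 (TMEM234), GPRC5B and SHC2 rose, with log2 fold changes against siNT of 1.15, 1.13, 1.10 and 1.06. DHFRL1, ZDHHC2 and SLC4A7, a sodium bicarbonate transporter, fell by 2.54, 2.16 and 1.35. SLC7A11, the cystine transporter, ranged from 17.9 to 33.7 CPM after siRBM39, from 50.4 to 54.3 CPM after siSF3B1 and from 59.1 to 64.4 CPM with siNT (−1.30 against siNT). NDUFS1, a subunit of respiratory complex I, ranged from 36.8 to 59.5 CPM after siRBM39, from 101 to 106 CPM after siSF3B1 and from 106 to 113 CPM with siNT (−1.10). GCFC2, a factor linked to pre-mRNA splicing, and PM20D2 fell by 1.26 and 1.12. Without siRBM39-08 replicate 4 the class held 2 genes that rose and 9 that fell, and with no filter on low counts 100.

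Secretory genes were counted by list. Of 148 genes in 7 secretory lists, 118 passed the count filter. Of these, 54 were higher after siSF3B1, 26 were higher after siRBM39 and 38 were not called. Over all genes tested, 33.7% and 37.7% were higher after siSF3B1 and siRBM39. Differences of at least 2-fold numbered 13 and 2, against 2.08% and 5.52% of all genes tested. The median log2 fold change was 0.14, against −0.03 over all genes tested. Without siRBM39-08 replicate 4 it was 0.10, with 52 and 28 genes. Against siNT, 61 of the 118 rose and 28 fell after siSF3B1, and 33 rose and 41 fell after siRBM39. Over all genes tested, 39.4% rose and 37.6% fell after siSF3B1, and 32.2% rose and 24.3% fell after siRBM39. The rise after siRBM39 was thus near its share over all genes. The lists were chosen with results of these data known and were not tested as sets or against all genes. The same shares over all genes, 33.7% and 37.7%, are the background for each list that follows.

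**Figure D4:**
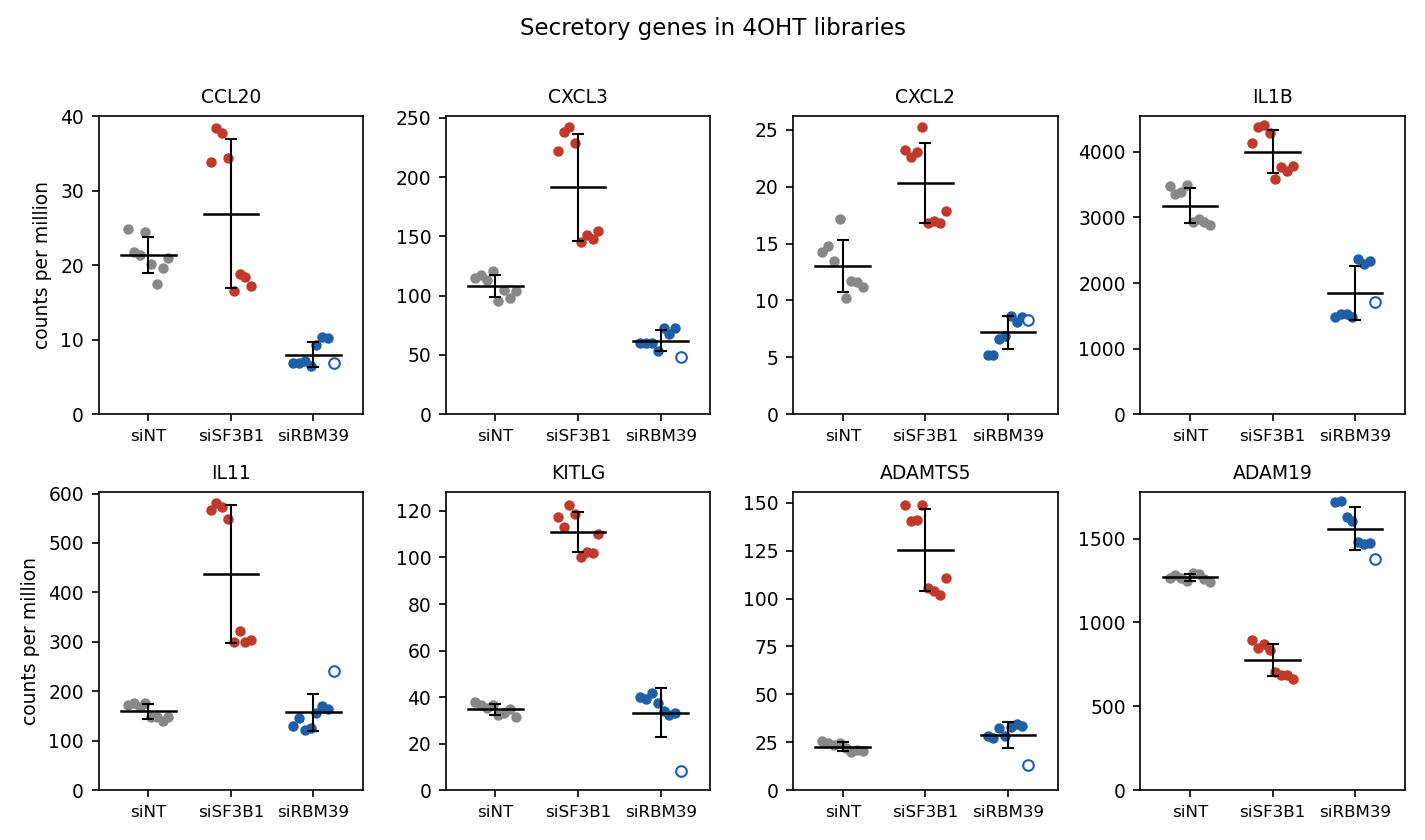
CPM (y, TMM-scaled) of 8 secretory genes in the 4OHT libraries with siNT, siSF3B1 and siRBM39. Each point is 1 library, with the first siRNA of a target on the left and the second on the right, the horizontal line is the mean of 8 libraries, the bar is ± 1 SD, and the open circle is siRBM39-08 replicate 4. The siSF3B1 libraries lie above the siRBM39 libraries in all panels except ADAM19, and in CCL20, CXCL3 and IL11, among others, the 2 SF3B1 siRNAs form separate groups.

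Among chemokines, which recruit leukocytes, 6 of 10 were higher after siSF3B1 and 3 after siRBM39. After siRBM39, 9 of the 10 fell against siNT and 1 rose, against 24.3% and 32.2% of all genes. After siSF3B1 4 rose and 4 fell, near the 39.4% and 37.6% of all genes. CCL20, the ligand of CCR6, ranged from 16.5 to 38.5 CPM (median 26.3) after siSF3B1, from 6.49 to 10.3 CPM (median 7.06) after siRBM39 and from 17.5 to 24.8 CPM (median 21.1) with siNT. Its siRBM39 libraries were below all others, with a direct log2 fold change of 1.75 (SE 0.15, adjusted p = 3.63e-13). The rise against siNT came with siSF3B1-13 (log2 fold change 0.77) and not with siSF3B1-16 (−0.26). CXCL2, which like CXCL3 acts on CXCR2, ranged from 16.8 to 25.2 CPM after siSF3B1, from 5.21 to 8.62 CPM after siRBM39 and from 10.2 to 17.1 CPM with siNT (1.502, SE 0.13, adjusted p = 1.18e-14). IL8 (CXCL8), the main neutrophil chemokine of senescent cells, ranged from 2605 to 2941 CPM after siSF3B1, from 881 to 2083 CPM after siRBM39 and from 2508 to 3709 CPM with siNT (0.97, SE 0.13, adjusted p = 1.46e-08). Its fall was −1.69 with siRBM39-06 and −0.71 with siRBM39-08. CCL2, chosen after its values were seen, CXCL6 and CXCL10 fell against siNT after both knockdowns and further after siSF3B1, with direct log2 fold changes of −0.51, −0.61 and −0.62. CXCL1, CXCL2 and CXCL3 are close paralogues, so reads could be divided among them.

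Interleukins and related cytokines were divided, with 4 of 10 higher after each knockdown. IL1B, the proinflammatory cytokine that drives much of the secretory programme, ranged from 3588 to 4402 CPM (median 3955) after siSF3B1, from 1479 to 2374 CPM (median 1622) after siRBM39 and from 2886 to 3494 CPM (median 3165) with siNT. It rose after siSF3B1 by 0.33 and fell after siRBM39 by 0.79, each on the log2 scale, and the direct difference was 1.12 (SE 0.12, adjusted p = 4.77e-11). IL11, an IL-6 family cytokine of fibroblasts, ranged from 299 to 581 CPM (median 436) after siSF3B1, from 123 to 241 CPM (median 151) after siRBM39 and from 139 to 177 CPM (median 159) with siNT (1.48, SE 0.16, adjusted p = 1.36e-11). Its rise was 1.83 with siSF3B1-13 and 0.94 with siSF3B1-16. IL6, named here for its role in senescence after its values were seen, fell in both knockdowns, to 26.5 to 39.6 CPM after siSF3B1 and 19.95 to 44.9 CPM after siRBM39 from 102 to 140 CPM with siNT, and the knockdowns overlapped (direct log2 fold change 0.12, SE 0.14, adjusted p = 0.466). CSF1, the macrophage growth factor, was higher after siRBM39 (−0.65, SE 0.07), at 37.7 to 52.9 CPM against 26.2 to 31.3 CPM. CSF2 was also higher after siRBM39 (−0.67), although the ranges overlapped and the difference between single pairs of siRNAs ran from −1.36 to −0.04.

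Growth factors were higher after siSF3B1 in 14 of 30 cases and after siRBM39 in 5. KITLG, the stem cell factor, ranged from 100 to 123 CPM (median 112) after siSF3B1, from 8.30 to 41.8 CPM (median 35.7) after siRBM39 and from 31.3 to 38.1 CPM (median 35.2) with siNT, the lowest value being that of siRBM39-08 replicate 4 (1.73, SE 0.17, or 1.59 without it). CTGF (CCN2), a matricellular target of TGF-beta and YAP, ranged from 410 to 532 CPM after siSF3B1, from 124 to 171 CPM after siRBM39 and from 184 to 209 CPM with siNT, so that the groups were separate on both sides of siNT (1.65, SE 0.06, adjusted p = 3.23e-27). BDNF, a neurotrophin, ranged from 151 to 221 CPM after siSF3B1, from 59.3 to 88.6 CPM after siRBM39 and from 44.1 to 46.9 CPM with siNT and so rose in both (1.35, SE 0.08). FGF7 and PDGFD, both growth factors of stromal cells, were higher after siSF3B1 by 1.16 and 1.02 on the log2 scale. HBEGF and FGF5 fell after both knockdowns and were lower after siSF3B1, with direct log2 fold changes of −0.61 and −0.57 and overlap between the groups, and for HBEGF the sign was reversed with siSF3B1-16 and siRBM39-06.

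Among 21 matrix proteases and plasminogen activators, 11 were higher after siSF3B1 and 5 after siRBM39. ADAMTS1 ranged from 150 to 182 CPM after siSF3B1, from 30.2 to 58.1 CPM after siRBM39 and from 50.4 to 60.8 CPM with siNT (1.66, SE 0.13, adjusted p = 6.41e-16). The direction was opposite for ADAM19, a membrane-bound shedding protease, which ranged from 662 to 894 CPM (median 772) after siSF3B1, from 1379 to 1727 CPM (median 1541) after siRBM39 and from 1242 to 1297 CPM (median 1264) with siNT. The 3 groups did not overlap (−1.01, SE 0.09, adjusted p = 1.53e-14). MMP11 was lower after siSF3B1 (−1.12, SE 0.22), with overlap, and between −1.75 and −0.26 for single pairs of siRNAs. Of 11 protease inhibitors 5 were higher after siSF3B1 and 1 after siRBM39. SERPINB2, which inhibits urokinase, ranged from 572 to 666 CPM after siSF3B1, from 247 to 312 CPM after siRBM39 and from 474 to 589 CPM with siNT (1.14, SE 0.09). IGF-binding proteins numbered 3 higher after siSF3B1 and 0 after siRBM39 of 6, with IGFBP5 at 8224 to 10640 CPM against 4578 to 7188 CPM (0.55, SE 0.08). Secreted matrix proteins were divided 11 and 8 of 30, with VCAN (0.74) and POSTN (0.86) on the siSF3B1 side and COL5A1 (−0.70) and THBS2 (−0.62) on the siRBM39 side.

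Genes of the secretory route itself were called on both sides. Of 33 genes for ER translocation and COPII export 11 were higher after each knockdown, which is near the shares over all genes, and of 21 COPI and Golgi genes 6 were higher after siSF3B1 and 10 after siRBM39. COPA, the alpha subunit of the COPI coat, ranged from 133 to 167 CPM (median 152) after siSF3B1, from 185 to 292 CPM (median 283) after siRBM39 and from 418 to 440 CPM (median 432) with siNT. It fell in both knockdowns and further after siSF3B1 (direct log2 fold change −0.85, SE 0.06, adjusted p = 4.10e-16). SRP68, of the signal recognition particle, and SEC23B, of the COPII coat, were lower after siSF3B1, with log2 fold changes of −1.0 (SE 0.06) and −0.78 (SE 0.04). Among 28 ER chaperone and unfolded protein response genes, 12 were higher after siSF3B1 and 5 after siRBM39. DDIT3 (CHOP) and TRIB3, both induced by the integrated stress response, were higher after siSF3B1 by 1.57 (SE 0.13) and 1.40 (SE 0.16), whereas ASNS, asparagine synthetase and a target of the same response, was lower (−1.49, SE 0.17).

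**Figure D5:**
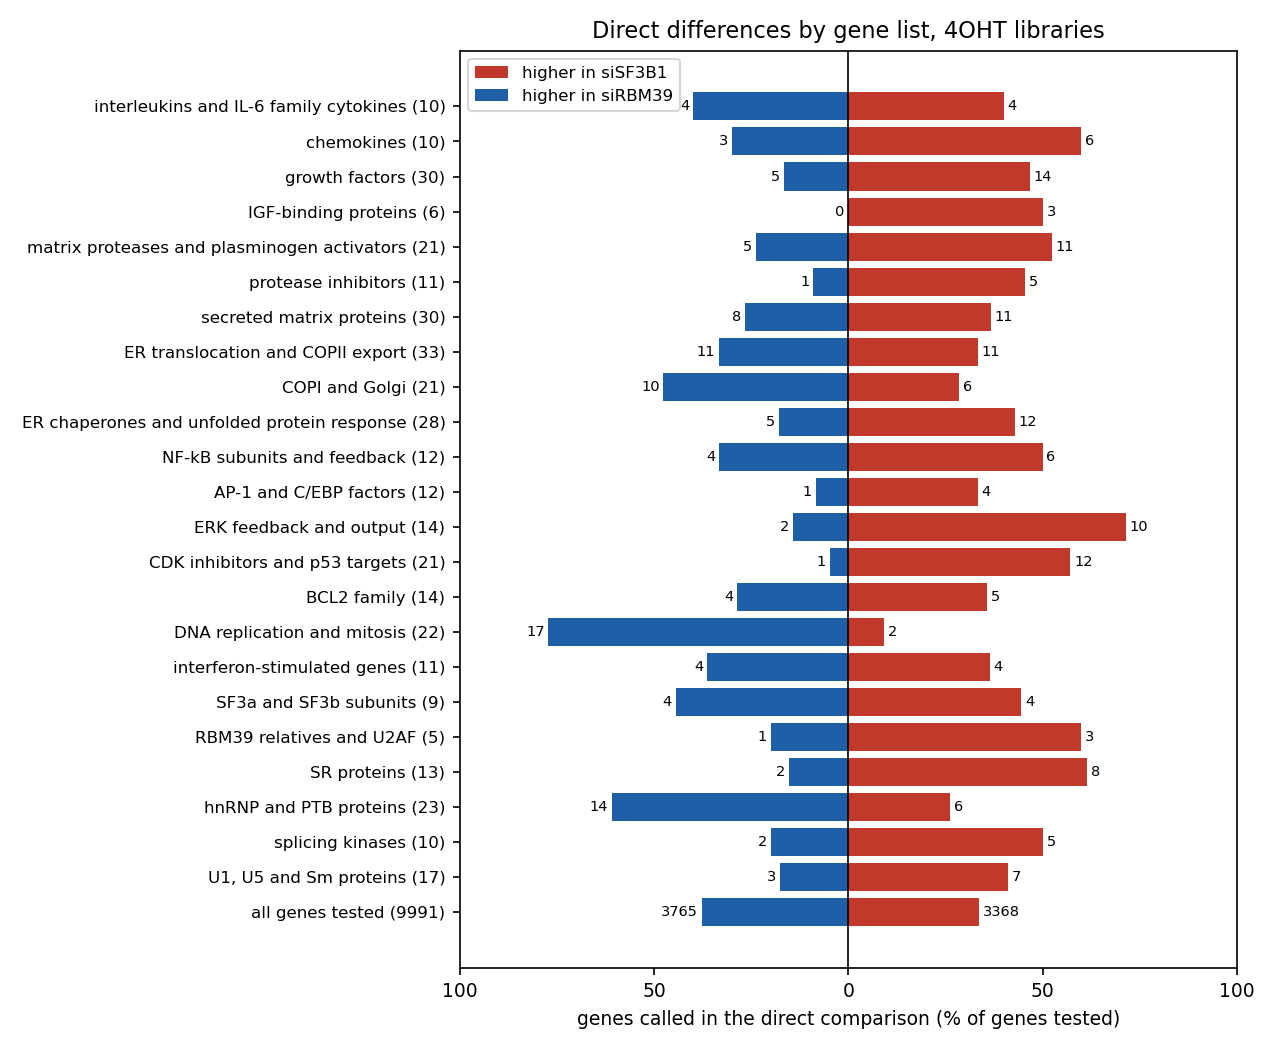
Share of genes called in the direct comparison of 4OHT siSF3B1 with 4OHT siRBM39 in 23 gene lists and in all genes tested (x, percent of genes tested, to the left higher after siRBM39, to the right higher after siSF3B1; the number tested is in brackets and the number called stands at each bar). ERK feedback genes lean to the siSF3B1 side (10 against 2) and DNA replication and mitosis genes to the siRBM39 side (17 against 2).

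Lists of signalling and cell cycle genes leaned to one side in several cases, which were not tested as sets. DNA replication and mitosis genes, which are low in arrested cells, were higher after siRBM39 in 17 of 22 cases and after siSF3B1 in 2, with a median log2 fold change of −0.74. Against siNT, 15 of them fell and 3 rose after siSF3B1, and 2 fell and 8 rose after siRBM39. Over all genes tested, 37.6% fell and 39.4% rose after siSF3B1, and 24.3% fell and 32.2% rose after siRBM39. The rise of these genes after siRBM39 was thus near its share over all genes. TOP2A, topoisomerase II alpha, ranged from 1.57 to 2.70 CPM (median 2.13) after siSF3B1, from 5.73 to 8.60 CPM (median 7.42) after siRBM39 and from 8.52 to 10.8 CPM (median 9.38) with siNT (−1.83, SE 0.19, adjusted p = 1.51e-11). In DMSO, without RAS activation, 18 of the 22 were higher after siRBM39, against 34.1% of all genes tested. ERK feedback and output genes, which report on the pathway below RAS, were higher after siSF3B1 in 10 of 14 cases (median 0.59). After siRBM39 2 of them were higher. In DMSO 9 of the 14 were higher after siSF3B1 and 3 after siRBM39 (median 0.30). DUSP1 and DUSP4, phosphatases of MAP kinases, were higher by 1.48 (SE 0.12) and 0.87 (SE 0.12), whereas EGR1, an immediate early transcription factor, was lower (−1.12, SE 0.10). CDK inhibitors and p53 targets were higher after siSF3B1 in 12 of 21 cases and after siRBM39 in 1. Without siRBM39-08 replicate 4 the counts were 12 and 3, and in DMSO they were 12 and 4. SESN1 and GADD45A, both stress-response genes, were at 1.26 (SE 0.06) and 0.87 (SE 0.06) and TP53I3 at −0.58 (SE 0.10). NF-kB genes were divided 6 and 4 of 12, and BIRC3, an inhibitor of apoptosis, was lower (−1.72, SE 0.15). AP-1 and C/EBP factors numbered 4 and 1 of 12, with FOSL2 and CEBPB, which drive secretory genes, higher after siSF3B1 by 1.02 (SE 0.08) and 0.75 (SE 0.09). BCL2 family genes numbered 5 and 4 of 14, with BCL2L2, a survival protein, lower after siSF3B1 (−1.13, SE 0.07), and interferon-stimulated genes 4 and 4 of 11.

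Splicing factor genes also moved. SR proteins, which promote exon inclusion, were higher after siSF3B1 in 8 of 13 cases and after siRBM39 in 2, and hnRNP and PTB proteins, many of which repress exons, were higher after siRBM39 in 14 of 23 cases and after siSF3B1 in 6. SFRS3 (SRSF3) ranged from 190 to 209 CPM after siSF3B1, from 122 to 171 CPM after siRBM39 and from 104 to 114 CPM with siNT (0.57, SE 0.05). HNRNPU ranged from 169 to 195 CPM after siSF3B1, from 338 to 398 CPM after siRBM39 and from 354 to 395 CPM with siNT (−1.0, SE 0.04, adjusted p = 2.32e-27). HNRNPM was lower after siSF3B1 (log2 fold change −0.97, or −0.76 without siRBM39-08 replicate 4, in which it was highest). SNRPA1, a protein of the U2 snRNP, was lower (−1.23, SE 0.06), and PRPF8, the core of U5 snRNP, was higher by 0.64 (SE 0.05). Of 17 U1, U5 and Sm genes 7 were higher after siSF3B1 and 3 after siRBM39, or 12 and 2 without siRBM39-08 replicate 4. SF3a and SF3b subunits were divided 4 and 4 of 9, SF3B1 included. RBM23, the closest relative of RBM39, rose after both knockdowns and was higher after siSF3B1 (0.43, SE 0.04), while SF1, which binds the branch point before U2, was higher after siRBM39 (−0.59, SE 0.05), in a list divided 3 and 1 of 5. Of 10 splicing kinases 5 were higher after siSF3B1 and 2 after siRBM39, with CLK4 lower after siSF3B1 and higher after siRBM39 than with siNT (direct log2 fold change −1.02, SE 0.07).

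In DMSO, 3360 genes (33.6%) were higher after siSF3B1 and 3403 (34.1%) were higher after siRBM39. Replicates 1 and 3 of siRBM39-06 in DMSO also lay apart from their group. Their median absolute log2 deviations were 0.305 and 0.212, against 0.0876 to 0.147 in the other DMSO knockdown libraries. They were kept, and their part in the comparison of treatments was not tested. Genes at least 2-fold higher after siSF3B1 in 4OHT were called in the same direction in DMSO in 170 of 208 cases, with median log2 fold changes of 1.21 in 4OHT and 0.77 in DMSO, and those higher after siRBM39 in 530 of 552 cases, with medians of −1.22 and −0.95. Genes with opposite movement were called in the same direction in DMSO in 316 of 347 and 474 of 529 cases, and genes changed by one knockdown in 273 of 288 and 10 of 12. Over all genes tested, 6177 of 9991 (61.8%) were called in DMSO in the direction of their 4OHT difference. Secretory genes were divided evenly in DMSO, with 38 higher after siSF3B1 and 36 after siRBM39 and a median of −0.02. Of the 10 chemokines, 0 were higher after siSF3B1 and 6 after siRBM39 in DMSO, and IL8 and CXCL5, both chosen after their values were seen, were low there. IL8 was at 0.348 to 0.682 CPM after siSF3B1 and 0.886 to 1.96 CPM after siRBM39, and CXCL5 at 0.0771 to 0.448 and 0.287 to 0.823 CPM. The direct difference itself differed between treatments for 2690 of 9991 genes (edgeR, 4OHT minus DMSO, adjusted p under 0.05, a contrast added after the values were seen). For PDK4, TCF21, G0S2 and ADAMTS5 it was larger in 4OHT by 2.80, 2.21, 2.13 and 1.89 on the log2 scale. In DMSO none of the 4 was called, with values from −0.17 to 0.23. These 4 genes were named for their large direct difference in 4OHT, so the choice itself favours a larger value there than in DMSO. The same holds for the medians of the 2-fold genes above.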

How the data were processed

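RNA was sequenced from 48 libraries of IMR90 ER:RAS cells in 6 groups of 8. The authors deposited read counts per gene, uncorrected for library size, and percent spliced-in (PSI) values with coverage scores per splicing event, in tables named for hg19, with event coordinates of GRCh38. They aligned and merged the lanes of each library with vast-tools. The deposited cRPKM and normalised CPM values were not used, as both were derived from the same reads. Submitters' processing notes name edgeR and limma. No per-sample column lacked a sample.

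Of 19847 entries, 19509 had counts, and 9991 genes with at least 10000 counts in all entered edgeR's quasi-likelihood fit (edgeR 4.0.16, R 4.3.3) of 6 group means with TMM scaling and Benjamini-Hochberg adjustment. CPM values, counts scaled to a common library size, are TMM-scaled, and depth ranged from 31467221 to 49222147 counts over the 16 knockdown libraries in 4OHT. Events needed a PSI in all 48 libraries, a coverage score of at least VLOW and a range of at least 5 points, and introns a balance p of at least 0.05. They were fitted with limma 3.58.1 on the logit of 0.01 + 0.98 × PSI/100, exons with introns and alternative 3′ with alternative 5′ sites. Both fits were tested on simulated data. A called event had an adjusted p under 0.05 and a difference of at least 5 points. Opposite movement was a call against siNT in both knockdowns with opposite signs, and both calls share the siNT libraries. The SUPT5H and CHD4 events, outside the fit, got exact permutation tests.

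Members and lists were chosen with earlier results of these data known. Genes named by rule were the targeted genes, the 6 largest direct differences per direction without overlap, the 5 largest opposite and 3 largest one-knockdown changes per direction, 2 genes per list and direction, and secretory genes differing 2-fold. Events for direct differences were taken from called events whose knockdown libraries did not overlap, so their lack of overlap follows from the choice. They were the 4 exons, 3 introns and up to 2 alternative sites of each kind with the largest direct differences per direction. The 3 largest opposite exons per direction were added. The study's methods state another number of replicates than the 4 per siRNA in the labels, which were followed. Replicate numbers paired no samples, since 3 of 16 libraries correlated best with a library of their own number. Alternatives included DESeq2 1.42.0, limma-voom, other filters and left-out libraries. Of 12923 exons and introns, 10996 matched GENCODE 44 structures on GRCh37 once and 239 more than once, and sequences were read with pysam 0.24.0.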

Additional observations from a re-analysis of the deposited data

Results flagged for a closer look

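In groups of 8 libraries, the gap from the highest or lowest library to the next, as a share of the whole range, was set against Dixon's 95% limit for that size. It was passed in 23 of 138 groups, and chance gives about 1 in 20. Of the 23, 20 were siRBM39 groups, and in 19 the library that lay apart was siRBM39-08 replicate 4. In that library the share was 0.831 for SF3B1, 0.692 for SUPT5H, 0.827 for G0S2, 0.658 for ADAMTS5, 0.919 for PLEKHJ1, 0.679 for RASSF4, 0.673 for PPP2R3A, 0.587 for ARHGAP39, 0.615 for ZNF451 and 0.613 for ARSI. It was 0.555 for C13orf33, 0.791 for THOC6, 0.607 for SAMD9L, 0.783 for C1orf91, 0.706 for SLC4A7, 0.595 for IL11, 0.718 for KITLG and 0.791 for ADAMTS1, all in CPM, and 0.706 for PSI of the PXN exon. Replicate 1 of siSF3B1-16 lay apart for RASSF4 (0.606) and for PSI in LUC7L3 (0.704) and RPS24 (0.587), and replicate 1 of siRBM39-08 for LUC7L3 (0.627).

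For 30 of 47 named genes the direct difference between the knockdowns differed between 4OHT and DMSO (edgeR, adjusted p under 0.05 over all genes). It did so for 2690 of 9991 genes tested and for 0 of 22 named events. The 47 are part of the 126 genes named by rule, most of them for large differences or changes in 4OHT. That choice favours a difference between treatments, so their share cannot be read against that of all genes. The log2 difference, 4OHT minus DMSO, was 2.80 for PDK4, 2.21 for TCF21, 2.13 for G0S2, 1.96 for C13orf33, 1.89 for ADAMTS5 and 1.18 for USP53. Among secretory genes it was 1.40 for ADAMTS1, 1.39 for CXCL2, 1.27 for IL11, 1.16 for IL1B, 0.952 for FGF7, 0.641 for BDNF, 0.570 for PDGFD, 0.569 for CTGF and −0.330 for ADAM19. It was 0.661 for ZNF844, 0.615 for THOC6, 0.514 for SLC4A7, 0.481 for RBM39 and 0.327 for C7orf41. Negative values were −1.38 for TMEM200B, −1.21 for ARSI, −1.03 for CAND2, −1.0 for RASSF4, −0.978 for GPRC5B, −0.937 for SAMD9L, −0.814 for PLEKHJ1, −0.597 for NACAD, −0.373 for ZDHHC2 and −0.351 for C1orf91.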

How the results depend on the processing

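Of 2488 values of named genes and events under the alternatives, 2459 kept their direction and side of the threshold, 24 lost the call and 5 reversed. The reversed direct log2 fold changes were HBEGF 0.36, SERPINE2 0.0108 and IFIT1 −0.161 for siSF3B1-16 with siRBM39-06, and IGFBP4 −0.0121 and IFIT1 −0.237 for siSF3B1-16 with siRBM39-08. With no filter on low counts, genes differing 2-fold numbered 668 higher after siSF3B1 and 1273 higher after siRBM39, genes changed by siSF3B1 only 618 and by siRBM39 only 100, and 2-fold genes called alike in DMSO 1400. With at least 5 counts in each library, 320 genes were 2-fold higher after siSF3B1 and 32 changed by siRBM39 only. For siSF3B1-13 with siRBM39-06, 369 genes were 2-fold higher after siSF3B1. Genes changed by siRBM39 only numbered 25 (siSF3B1-13 with siRBM39-08), 29 (siSF3B1-16 with siRBM39-06), 43 (siSF3B1-16 with siRBM39-08) and 23 (siSF3B1 against siNT2, siRBM39 against siNT1), against 12 with all. They numbered 13 to 20 with 1 replicate number left out, 20 being the count without replicate 1 and without replicate 3, and 11 without siRBM39-08 replicate 4 alone. With siSF3B1 against siNT1 and siRBM39 against siNT2, opposite genes numbered 220 and 329.

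With a plain logit, over events with PSI from 1 to 99 in all 48 libraries, 287 exons (87 higher after siSF3B1, 200 after siRBM39), 52 introns (41 and 11), 38 alternative 3′ and 12 alternative 5′ sites were called. With a coverage score of at least LOW, the counts were 1237, 368, 50 and 11. A minimum of 10 points left 1094 exons, 19 opposite exons, 221 introns and 51 alternative 3′ sites. Without the balance filter, 2111 introns were called and 14 were opposite, and 1 was opposite with only the 4OHT groups fitted. Alternative 5′ sites numbered 7 (siSF3B1-13 with siRBM39-08), 8 (siSF3B1-16 with siRBM39-06) and 5 (siSF3B1-16 with siRBM39-08), against 19 with all. They numbered 10 to 16 with 1 replicate number left out, 10 being the count without replicate 4, and 22 without siRBM39-08 replicate 4 alone. Alternative 3′ sites numbered 53 and 52 in the last 2 pairs. The stricter filters and single pairs hold fewer events or libraries, and other causes were not tested. With a replicate block, 3366 genes were higher after siSF3B1 and 3688 after siRBM39, opposite genes numbered 335 and 503, each named gene and event kept its call, and each count stayed within 1.5 times. Events at the coverage minimum are the least precise, since PSI there rests on few reads.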
